A study of Mus musculus with 4 samples.

Results

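The 8 genes described here, Ly6a, Ly6e, Kit, Cd34, Flt3, Slamf1, Cd48 and Procr, encode surface proteins by which mouse haematopoietic stem and progenitor cells are gated in flow cytometry or, in the case of Ly6e, a relative of one. They were taken by name from a table of 46517 genes, each name matched 1 row, and all 8 passed the filter on low values used for testing. The libraries came from LSK cells, which are blood-forming cells negative for lineage antigens and positive for Sca-1 and c-Kit. They fell into 2 genotypes on a C57BL/6 background at 8 to 10 weeks of age, Setd2D/D, the Setd2 knockout (2 libraries), and Setd2f/f, described by the submitters as wild type for Setd2 (2 libraries). The sources used here name neither the Cre nor the deleted part of Setd2, nor the number of mice in a library or the gate boundaries. No source says that the 2 replicates of a genotype came from separate mice, so the p-values cover the spread among these libraries only, and that spread may be technical.

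LSK cells are a mixture. Long-term stem cells within the gate are known in C57BL/6 mice to carry CD150 (Slamf1) and EPCR (Procr) and to lack or carry little CD48, CD34 and Flt3, while multipotent progenitors gain CD48, CD34 and, on the lymphoid-primed side, Flt3. Kit is the receptor for stem cell factor and Flt3 the receptor for Flt3 ligand, and both are tyrosine kinases that carry survival and growth signals. Sca-1, the product of Ly6a, is a small glycolipid-anchored protein induced by interferon, and Ly6e encodes a related anchored protein (Sca-2) that is not the antigen of the LSK gate.

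Levels are in TPM, an abundance scale in which estimated reads are divided by transcript length and each library is scaled to the same total, so that genes can be compared with each other. Depth is not stated, but the lowest values of single-transcript genes showed the worth of 1 read and from it a depth of 0.595 and 0.851 in the Setd2D/D libraries and 0.817 in Setd2f/f replicate 1, as a fraction of that of Setd2f/f replicate 2, the deepest. Setd2D/D replicate 1 stood apart from the rest, with a correlation across 14755 genes of 0.91 with its own replicate and 0.91 with each Setd2f/f library. The Setd2f/f libraries correlated at 0.96 with each other. Setd2D/D replicate 2 correlated at 0.93 and 0.94 with Setd2f/f replicates 1 and 2, more than with its own replicate. The Setd2D/D libraries thus did not group together by this measure, in which genes are not independent replicates. Setd2 itself, counted over the whole gene, was at 43.4 and 49.5 TPM in Setd2D/D and at 78.9 and 68.0 TPM in Setd2f/f (limma adjusted p = 0.329). The authors' deposited edgeR comparison gives Setd2 a log2 change of -0.73 (FDR 5.84e-06). These values check the labels only as far as the whole-gene level goes. Differences were tested with limma on log2(TPM + 1) over the 14755 genes that reached 1 TPM in 2 or more libraries, with Benjamini-Hochberg adjustment at 0.05. An exact 2-sided permutation test of 2 libraries against 2 cannot go below p = 0.33.

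In Setd2D/D LSK cells, Ly6e and Kit transcripts were higher in both libraries than in either Setd2f/f library, and Ly6a, Cd34, Flt3 and Cd48 were lower in both. Slamf1 and Procr overlapped between genotypes. Thus 6 of the 8 genes had genotypes that did not overlap, where 44.3% of all genes tested did so, and the 4 lower and 2 higher members stand beside 27.6% and 16.8% of all genes. By limma 0 of the 8 passed an adjusted p of 0.05 over all genes, beside 0.0678% of all genes tested, and the unadjusted p was under 0.05 for 5 of 8, beside 11.2% of all genes. The authors' deposited table, which comes from edgeR, placed 3 of 8 past an FDR of 0.05 (Ly6e higher, Ly6a and Cd34 lower), beside 3.15% of its 23955 genes, 1.51% higher and 1.64% lower. The median log2 change of the 8 genes was -0.18, against -0.063 over all genes tested, and the median absolute change was 0.36 against 0.24.

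**Figure D1:**
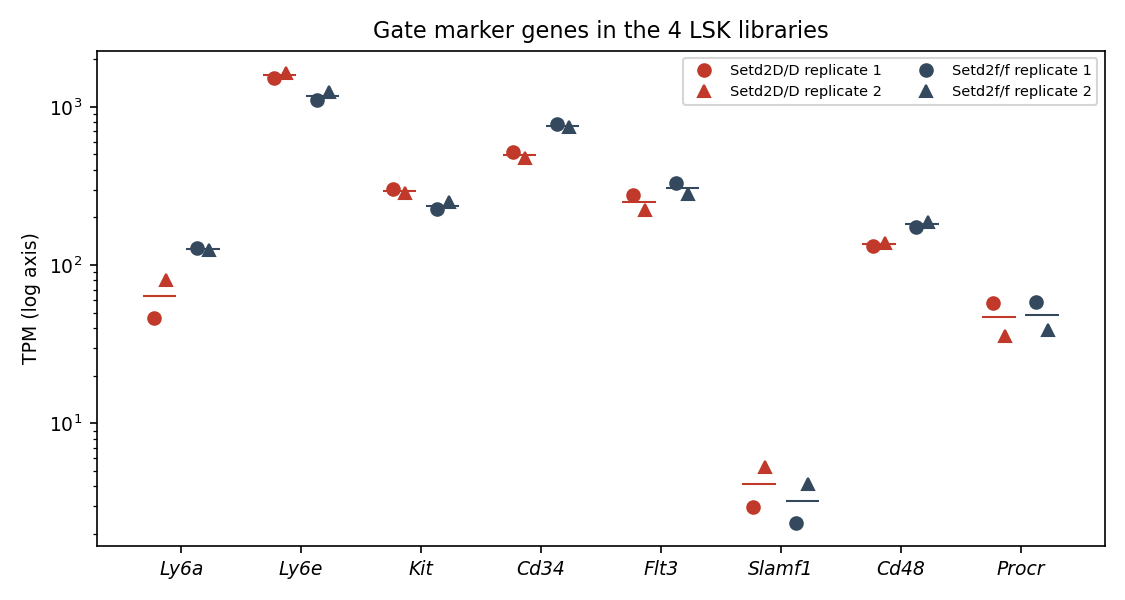
TPM (log axis) of the 8 gate marker genes in each of the 4 LSK libraries, with Setd2D/D in red at the left of each gene and Setd2f/f in dark blue at the right. Circles are replicate 1, triangles replicate 2 and short lines the mean of 2 libraries; the genotypes separate for 6 genes and overlap for Slamf1 and Procr.

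The genes spanned a wide range of levels. In Setd2D/D, the order by mean TPM was Ly6e, Cd34, Kit, Flt3, Cd48, Ly6a, Procr and Slamf1, and in Setd2f/f it was Ly6e, Cd34, Flt3, Kit, Cd48, Ly6a, Procr and Slamf1. Neighbours in the order did not overlap across libraries, except Ly6a and Procr in Setd2D/D. Kit and Flt3 therefore stood in the opposite order in the 2 genotypes, in both libraries of each. Ly6e ranked 115th of all genes by mean TPM, and Slamf1 ranked 11956th.

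Ly6a, the gene of the Sca-1 antigen, showed the largest difference of the 8. Its level was 46.5 and 80.6 TPM in the Setd2D/D libraries, against 127.5 and 123.8 TPM in the Setd2f/f libraries. Both Setd2D/D libraries were below both Setd2f/f libraries, with the lowest value in Setd2D/D replicate 1. The mean was 63.6 ± 24.1 TPM in Setd2D/D and 125.6 ± 2.63 TPM in Setd2f/f (SD, n = 2 each), a ratio of 0.506. The limma log2 change was -1.02 with a standard error of 0.27, a 95% interval of -1.74 to -0.31 and an adjusted p of 0.370. With Setd2D/D replicate 1 left out the change was -0.63, and with Setd2D/D replicate 2 left out it was -1.41, so its size rests on which Setd2D/D library is used. In the authors' deposited table Ly6a has a log2 change of -0.91 (FDR 3.08e-06). LSK cells are selected on this protein, so that the values describe transcripts within the gate, and in bulk samples fewer cells of a type and less RNA per cell cannot be told apart.

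Ly6a lies on GRCm38 chromosome 15 (74994877 to 74998031, minus strand) among close relatives, so reads may be shared with them. Of its 1297 stretches of 50 bases in annotated transcripts, 19.0% also occur in another gene, with 195 in Ly6c1, 31 in Ly6i, 20 in I830127L07Rik and 3 in Ly6c2. The coding sequence of Ly6a is 83.8% identical to that of Ly6c1, 83.6% to Ly6c2, 86.4% to Ly6i and 52.9% to Ly6e. The 120 coding bases in which Ly6a is closest to Ly6c1 and Ly6c2 are shown because they let a reader see how alike these genes are, in lower case with bases that differ from Ly6a in capitals. They cover coding bases 285 to 404 of Ly6a and 276 to 395 of Ly6c1 and Ly6c2, counted from 1 at the start codon, in GENCODE release M21 transcripts.
Ly6a: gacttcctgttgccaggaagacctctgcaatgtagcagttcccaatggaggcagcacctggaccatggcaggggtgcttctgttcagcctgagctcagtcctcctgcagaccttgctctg
Ly6c1: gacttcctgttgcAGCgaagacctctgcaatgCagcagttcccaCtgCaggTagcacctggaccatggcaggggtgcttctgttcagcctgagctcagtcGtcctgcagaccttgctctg
Ly6c2: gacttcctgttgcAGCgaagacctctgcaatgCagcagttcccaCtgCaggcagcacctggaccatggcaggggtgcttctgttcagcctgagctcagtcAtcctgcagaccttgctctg
In this stretch 8 bases of Ly6c1 and 7 of Ly6c2 differ from Ly6a. The partner with the most shared stretches was itself low, with Ly6c1 at 2.73 and 0 TPM in Setd2D/D and at 5.31 and 2.27 TPM in Setd2f/f. Summed over Ly6a, Ly6c1, Ly6i and I830127L07Rik, the level was 52.2 and 92.0 TPM in Setd2D/D and 136.8 and 130.7 TPM in Setd2f/f, a ratio of 0.539, so the difference was about as large in the sum. With Ly6c2 added, the sum was 184.9 and 272.6 TPM in Setd2D/D and 226.4 and 220.8 TPM in Setd2f/f, which overlap (ratio of means 1.02). Ly6c2, which shares 3 of the stretches, was itself higher in both Setd2D/D libraries, at 132.6 and 180.5 TPM against 89.6 and 90.1 TPM in Setd2f/f. How reads were divided between Ly6a and Ly6c2 was not tested.

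Ly6e, 35.0 kb away with only Ly6i as a protein-coding gene between them (74955051 to 74959905, plus strand), differed in the other direction. It was at 1527 and 1628 TPM in Setd2D/D and at 1096 and 1240 TPM in Setd2f/f, with both Setd2D/D libraries above both others. The mean was 1578 ± 71.6 TPM in Setd2D/D and 1168 ± 102 TPM in Setd2f/f (SD, n = 2 each), a ratio of 1.35. By limma the log2 change was 0.44 with a standard error of 0.10 and an adjusted p of 0.329, and the authors' deposited table gives 0.51 with an FDR of 0.00313. No 50-base stretch of Ly6e occurs in another gene. Within a library, the Ly6a level was 3.05% and 4.95% of the Ly6e level in Setd2D/D, against 11.6% and 9.98% in Setd2f/f. This ratio within a library does not depend on how libraries are scaled to each other.

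Other members of the Ly6 family and related genes were mostly low. Of 24 names in the list, 19 were in the table and 9 were tested, with 6 above 0 and 3 below, a median log2 change of 0.35 and 0 past limma. In the authors' deposited table, Ly6e and Ly6c2 were higher and Ly6a lower past an FDR of 0.05, with 13 of the list present there. Of all genes there, 1.51% were higher and 1.64% lower past that FDR, and Ly6e and Ly6a are members already counted above. Ly6c2, one of the genes of the Ly6C antigen of myeloid cells, was at 132.6 and 180.5 TPM in Setd2D/D and at 89.6 and 90.1 TPM in Setd2f/f (ratio 1.74, limma adjusted p = 0.321). Ly6d, a marker of early lymphoid progenitors, was at 19.8 and 33.2 TPM in Setd2D/D and at 47.6 and 30.9 TPM in Setd2f/f, which overlap. Cd59a, Cd59b, Lynx1 and Ly6g had adjusted p-values of at least 0.594. Cd59b was higher in both Setd2D/D libraries, and Cd59a, Lynx1 and Ly6g overlapped.

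**Figure D2:**
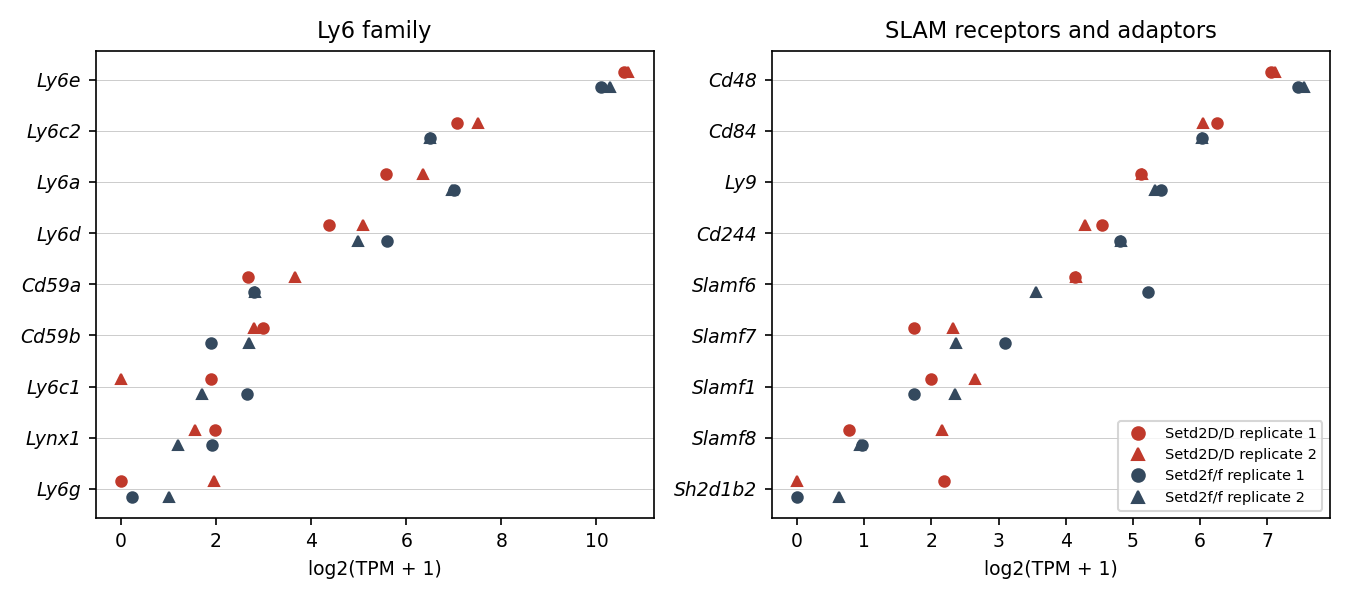
log2(TPM + 1) of Ly6 family genes (left) and of SLAM receptors and adaptors (right) with a mean TPM of at least 1, in the 4 libraries. Setd2D/D libraries are in red above and Setd2f/f libraries in dark blue below on each line; Ly6a and Ly6c2 separate by genotype in opposite directions, and Slamf1 is among the lowest of the SLAM genes.

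Kit (chromosome 5, 75574916 to 75656722, plus strand), the other gene of the gate, was at 301 and 285 TPM in Setd2D/D and at 224 and 249 TPM in Setd2f/f. Both Setd2D/D libraries were above both Setd2f/f libraries. The mean was 293 ± 11.1 TPM in Setd2D/D and 237 ± 17.2 TPM in Setd2f/f (SD, n = 2 each), a ratio of 1.24. The limma log2 change was 0.31 with a standard error of 0.10 and an adjusted p of 0.420, and the authors' deposited table gives 0.35 with an FDR of 0.113. Leaving out single libraries gave 0.24 to 0.38. The Ly6a level was 15.4% and 28.2% of the Kit level in Setd2D/D, against 56.8% and 49.8% in Setd2f/f, a lower share in both knockout libraries.

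Flt3 (chromosome 5, 147330741 to 147400489, minus strand), the receptor kinase of lymphoid-primed progenitors, was at 276 and 223 TPM in Setd2D/D and at 332 and 279 TPM in Setd2f/f. The genotypes did not overlap, but the highest Setd2D/D library was only just below the lowest Setd2f/f library. The mean was 249 ± 37.6 TPM in Setd2D/D and 306 ± 37.0 TPM in Setd2f/f (SD, n = 2 each), a ratio of 0.815. By limma the log2 change was -0.30 with a 95% interval of -0.70 to 0.11 and an adjusted p of 0.533, and the authors' deposited table gives -0.24 with an FDR of 0.465. Leaving out Setd2D/D replicate 1 gave -0.45 and replicate 2 -0.14, and leaving out Setd2f/f replicate 1 gave -0.17 and replicate 2 -0.42. Summed over the other 10 genes of an 11-gene lymphoid priming list, levels were 3115 and 2484 TPM in Setd2D/D and 3383 and 2732 TPM in Setd2f/f, which overlap, and their part in the Flt3 values was not tested. The Kit level was 1.09 and 1.28 times the Flt3 level in Setd2D/D, against 0.677 and 0.890 times in Setd2f/f. This pair of genes was chosen after its values were seen.

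The relatives and partners of these kinases mostly missed both tests. In the list of class III receptor kinases and their ligands, 8 of 11 genes were tested, with 4 above 0 and 4 below, and 0 passed limma. Kitl, the Kit ligand, did not exceed 0.260 TPM in any library. Flt3l, the Flt3 ligand, was at 28.9 and 16.4 TPM in Setd2D/D and at 29.1 and 23.4 TPM in Setd2f/f, which overlap. Pdgfrb, a platelet-derived growth factor receptor, was at 10.4 and 10.7 TPM in Setd2D/D and at 25.1 and 20.9 TPM in Setd2f/f (limma adjusted p = 0.276), and was the 1 gene of this list past the FDR of the authors' deposited table. Among 29 genes that carry or restrain Kit and Flt3 signals, 9 were above 0 and 20 below, with a median log2 change of -0.084, and 0 passed limma. In the authors' deposited table, Stat5a was higher, and Dok2, Spred1 and Sla2 were lower, past an FDR of 0.05. Of all genes there, 1.51% were higher and 1.64% lower past that FDR. Dok2, an adaptor that restrains receptor kinase signals, was at 32.0 and 30.6 TPM in Setd2D/D and at 63.1 and 74.2 TPM in Setd2f/f (limma adjusted p = 0.176). Stat5a, a transcription factor activated downstream of cytokine receptors, was at 80.5 and 78.8 TPM in Setd2D/D and at 53.4 and 60.5 TPM in Setd2f/f (limma adjusted p = 0.365).

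**Figure D3:**
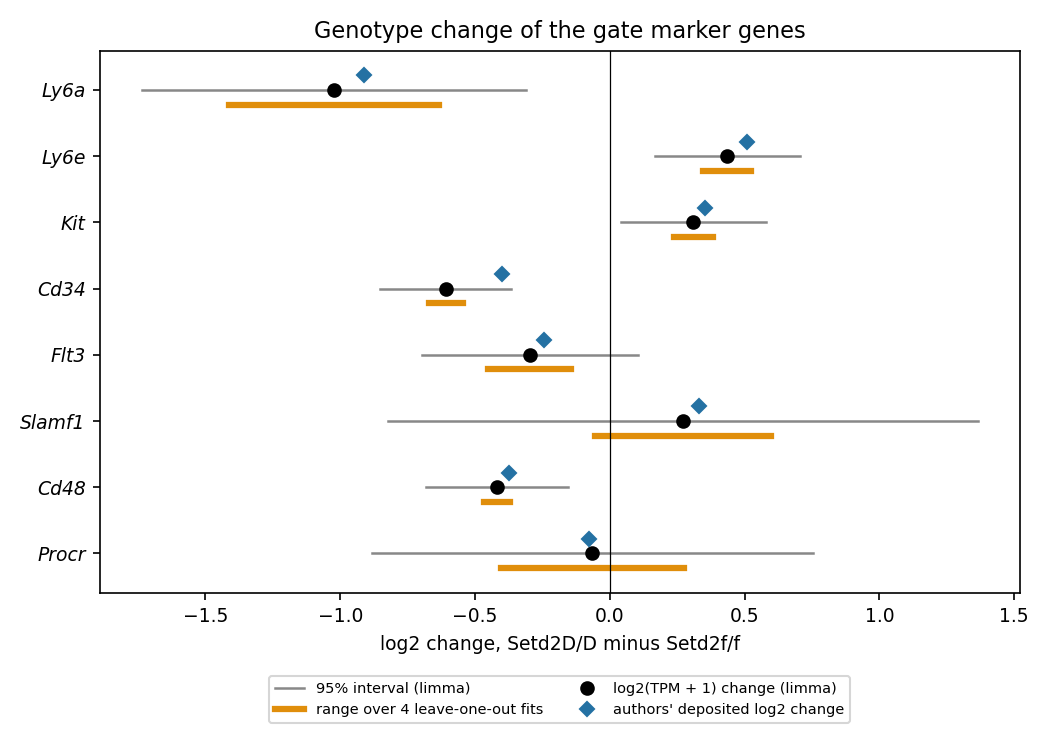
Change of each gate marker gene between genotypes, on a log2 axis (Setd2D/D minus Setd2f/f). Black points are limma changes of log2(TPM + 1) with 95% intervals as grey lines, blue diamonds the authors' deposited log2 changes, and orange bars the range when each library is left out in turn; Ly6a has the widest range among the 6 genes that do not cross 0 in it, and Slamf1 and Procr cross 0.

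Cd34, which encodes a sialomucin of progenitors and endothelium, had the smallest p of the 8. It was at 520 and 476 TPM in Setd2D/D and at 773 and 747 TPM in Setd2f/f. The libraries of a genotype lay close together and the genotypes far apart. The mean was 498 ± 31.1 TPM in Setd2D/D and 760 ± 18.3 TPM in Setd2f/f (SD, n = 2 each), a ratio of 0.656. The limma log2 change was -0.61 with a standard error of 0.093 and a 95% interval of -0.85 to -0.37. The unadjusted p was 0.00145 by limma and the adjusted p 0.211. Leaving out single libraries gave -0.67 to -0.55.

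The authors' deposited table gives Cd34 a smaller log2 change of -0.40, with an FDR of 0.0461. That value is 0.21 above the log2 ratio of mean TPM, a gap higher than in 92.8% of 9047 genes with a mean TPM above 10 in both genotypes, where the median gap was 0.048 and the 5th and 95th percentiles were -0.25 and 0.25. For Ly6a, Ly6e, Kit, Flt3 and Cd48 the gap was between 0.044 and 0.076. Cd34 lies on chromosome 1 (194938819 to 194961279, plus strand) and has 5 annotated transcripts, 2 of them protein-coding. An antisense model, Gm16897, overlaps it and was at 6.28 and 5.22 TPM in Setd2D/D and at 9.06 and 8.42 TPM in Setd2f/f, a low level beside that of Cd34, and whether reads were counted by strand is not stated.

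Relative to Flt3, Cd34 was also lower, at 1.89 and 2.14 times the Flt3 level in Setd2D/D, against 2.33 and 2.67 times in Setd2f/f. Endothelial cells also carry CD34 and Sca-1. Of 13 endothelial and stromal markers, 6 stayed under 1 TPM in every library (Cdh5, Kdr, Cxcl12, Col1a1, Lepr and Pdgfra), and the summed level was 364 and 334 TPM in Setd2D/D and 381 and 411 TPM in Setd2f/f. Most of this sum was Egfl7 and Pecam1, which overlapped between genotypes, and the members that did not overlap were split. Tek was at 15.2 and 12.9 TPM in Setd2D/D and at 4.64 and 4.88 TPM in Setd2f/f, while Emcn was at 5.68 and 11.7 TPM in Setd2D/D and at 42.9 and 24.3 TPM in Setd2f/f, and Tie1 was also lower in both Setd2D/D libraries. The part of such cells in the Cd34 and Ly6a values was not tested. Of 9 genes in the list of sialomucins and their partners, 7 were tested, with 4 above 0, 3 below and 0 past limma. Podxl, a sialomucin related to Cd34, was at 7.55 and 7.59 TPM in Setd2D/D and at 3.57 and 2.16 TPM in Setd2f/f (ratio of means 2.64, limma adjusted p = 0.390). In the authors' deposited table, Podxl was higher by 2.74 on the log2 scale, past an FDR of 0.05, which is more than the ratio of TPM.

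The start regions of Cd34 and Kit are shown because these genes differed in opposite directions with little spread in a genotype. RefSeq promoters on GRCm38.p6, 250 bases before to 50 after the start, were matched for 6 of the 8 genes, and Ly6a and Ly6e were not matched. The letters GATAA on either strand, the core that GATA factors recognise, are in capitals.
Cd34, plus strand, chr1:194938571-194938870: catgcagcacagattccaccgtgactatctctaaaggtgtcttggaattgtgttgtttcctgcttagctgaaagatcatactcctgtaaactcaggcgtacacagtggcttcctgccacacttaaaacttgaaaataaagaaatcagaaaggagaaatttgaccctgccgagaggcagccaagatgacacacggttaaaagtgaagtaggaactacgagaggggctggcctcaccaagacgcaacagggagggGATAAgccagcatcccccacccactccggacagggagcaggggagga
Kit, plus strand, chr5:75574737-75575036: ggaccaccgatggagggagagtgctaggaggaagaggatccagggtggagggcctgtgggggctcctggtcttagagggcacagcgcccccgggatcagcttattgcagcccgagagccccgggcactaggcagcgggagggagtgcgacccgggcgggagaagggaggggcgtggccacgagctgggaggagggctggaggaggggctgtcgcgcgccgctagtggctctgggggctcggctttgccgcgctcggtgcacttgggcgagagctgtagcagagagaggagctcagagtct
GATAA occurred once in Cd34 and once in Slamf1 and in none of the windows of Kit, Flt3, Cd48 and Procr, while 25.4% of 32851 promoters of that length hold it. These matches describe letters only.

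Slamf1 (CD150, chromosome 1, 171767127 to 171801184, plus strand), the SLAM receptor that marks stem cells in the gate, was the lowest of the 8. It was at 2.98 and 5.26 TPM in Setd2D/D and at 2.34 and 4.12 TPM in Setd2f/f. The genotypes overlapped, and the libraries of each genotype differed more than the genotypes did. The mean was 4.12 ± 1.61 TPM in Setd2D/D and 3.23 ± 1.26 TPM in Setd2f/f (SD, n = 2 each). By limma the log2 change was 0.27 with a 95% interval of -0.82 to 1.37 and an adjusted p of 0.844, and the authors' deposited table gives 0.33 with an FDR of 0.885. From the worth of 1 read and the length of its coding transcript, roughly 136 and 342 reads stood behind the Setd2D/D values and roughly 146 and 315 behind the Setd2f/f values, and a change within the interval could not be told from 0.

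Cd48 (chromosome 1, 171682009 to 171705258, plus strand), the SLAM family ligand carried by most progenitors and not by long-term stem cells, lies 61.9 kb from Slamf1 with no protein-coding gene between them. It was at 131.6 and 138.1 TPM in Setd2D/D and at 174.6 and 186.6 TPM in Setd2f/f. Both Setd2D/D libraries were below both Setd2f/f libraries, and the spread in a genotype was small. The mean was 135 ± 4.55 TPM in Setd2D/D and 181 ± 8.47 TPM in Setd2f/f (SD, n = 2 each), a ratio of 0.747. The limma log2 change was -0.42 with a standard error of 0.10 and an adjusted p of 0.338, and the authors' deposited table gives -0.37 with an FDR of 0.123. As a ratio within a library, Slamf1 was at 2.26% and 3.81% of the Cd48 level in Setd2D/D, against 1.34% and 2.21% in Setd2f/f. These ranges did not overlap, but nearly touched.

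A gene model inside Cd48 differed in the other direction. Gm37010, a single-exon model of unsettled status on the same strand (171688311 to 171690014), lies within intron 1 of Cd48 (171682167 to 171695663) and shares no 50-base stretch with Cd48 transcripts. It was singled out after its values were seen. Its level was 21 and 12.3 TPM in Setd2D/D, against 4.20 and 3.01 TPM in Setd2f/f. Both Setd2D/D libraries were higher, with a ratio of means of 4.62, a limma log2 change of 1.91 (standard error 0.35) and an adjusted p of 0.267. The authors' deposited table gives 2.26 with an FDR of 4.53e-06. Relative to Cd48 it was at 16.0% and 8.93% in Setd2D/D and at 2.41% and 1.61% in Setd2f/f, a higher share in both Setd2D/D libraries.

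**Figure D4:**
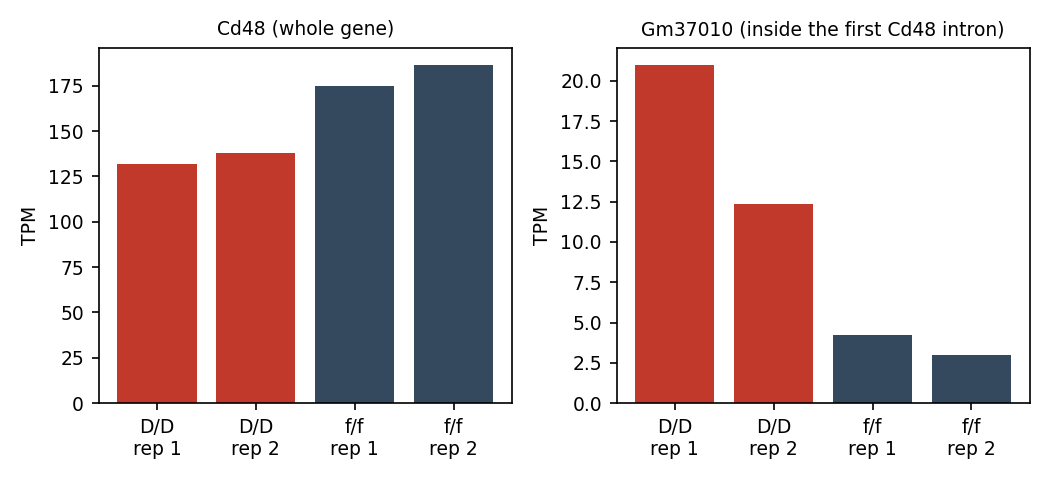
TPM of Cd48 over its annotated exons (left) and of the model Gm37010 inside intron 1 of Cd48 (right) in each of the 4 libraries, with Setd2D/D in red and Setd2f/f in dark blue. Each bar is 1 library; Cd48 bars are lower and Gm37010 bars higher in both Setd2D/D libraries.

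The SLAM list as a whole held no call. Of 14 names 13 were in the table and 7 were tested, with 2 above 0 and 5 below, a median log2 change of -0.25, 0 past limma and 0 past the FDR of the authors' deposited table. Cd244, the receptor for CD48, was at 22.1 and 18.4 TPM in Setd2D/D and at 27.1 and 27.3 TPM in Setd2f/f (limma adjusted p = 0.479). Ly9 was at 33.9 and 34.2 TPM in Setd2D/D and at 41.7 and 39.1 TPM in Setd2f/f, and Cd84 was at 75.5 and 65.0 TPM in Setd2D/D and at 64.1 and 64.2 TPM in Setd2f/f. In 4 of the 7, Cd48, Cd244, Ly9 and Slamf7, both Setd2D/D libraries were lower, and in Cd84 both were higher, beside 27.6% lower and 16.8% higher among all genes tested. Slamf6 was at 16.6 and 16.7 TPM in Setd2D/D and at 36.5 and 10.7 TPM in Setd2f/f, with a wide spread in Setd2f/f. Slamf7, Slamf8 and the adaptor gene Sh2d1b2 stayed under 8 TPM in every library.

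Procr (EPCR, chromosome 2, 155751117 to 155755471, plus strand), the endothelial protein C receptor that marks stem cells, was at 57.8 and 35.7 TPM in Setd2D/D and at 58.2 and 38.7 TPM in Setd2f/f. The genotypes overlapped almost fully, and replicate 1 was the higher library in each. The mean was 46.7 ± 15.6 TPM in Setd2D/D and 48.5 ± 13.8 TPM in Setd2f/f (SD, n = 2 each), a ratio of 0.963. By limma the log2 change was -0.064 with a 95% interval of -0.88 to 0.75 and an adjusted p of 0.960, so that changes up to the size of these bounds in either direction could not be told from 0. Procr was at 43.9% and 25.8% of the Cd48 level in Setd2D/D and at 33.4% and 20.8% in Setd2f/f, which overlap. In the protein C pathway, 7 of 11 genes were tested, with 2 above 0, 5 below and 0 past limma. The thrombin receptor genes F2r and F2rl3 were lower in both Setd2D/D libraries, with F2rl3 at 22.4 and 21.9 TPM in Setd2D/D and at 33.2 and 36.7 TPM in Setd2f/f (limma adjusted p = 0.339). Pros1, which encodes protein S, the cofactor of activated protein C, was higher in both Setd2D/D libraries, at 5.83 and 3.58 TPM in Setd2D/D and at 2.30 and 1.72 TPM in Setd2f/f (limma adjusted p = 0.470). Tfpi, an inhibitor of tissue factor, was the 1 gene of this list past the FDR of the authors' deposited table, with a log2 change of -0.73. Of all genes there, 1.64% were lower past that FDR.

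**Figure D5:**
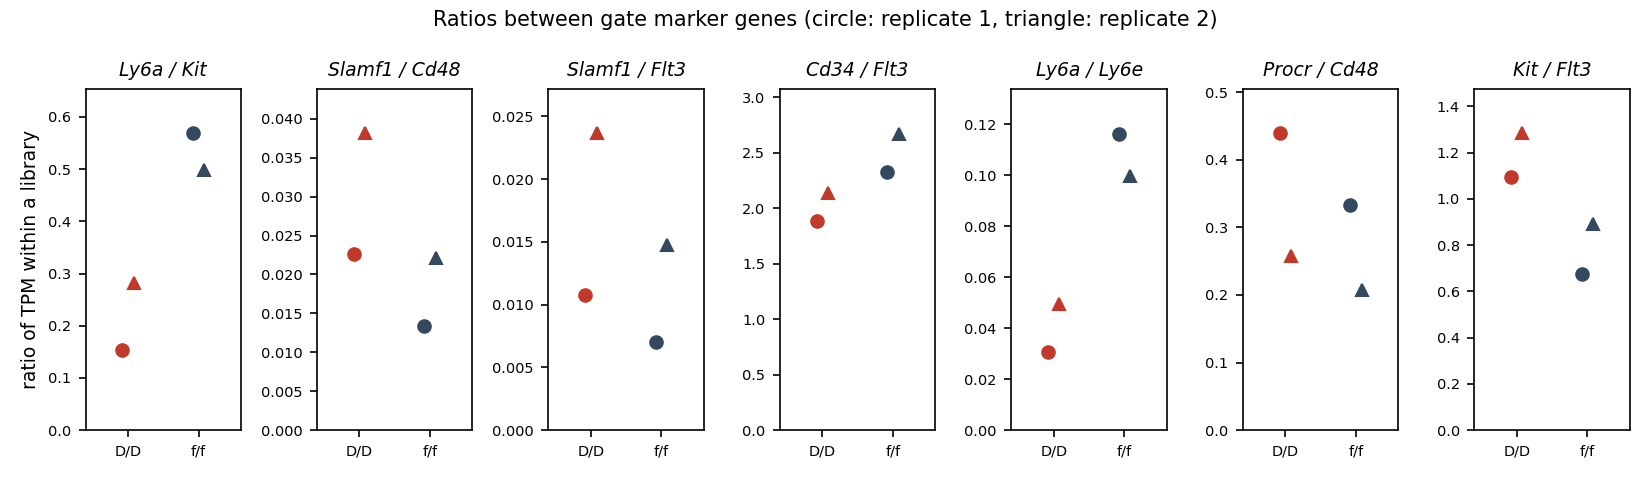
Ratio of TPM between gate marker genes within each library, with Setd2D/D at the left (red) and Setd2f/f at the right (dark blue) of each panel and each vertical axis starting at 0. The libraries of the genotypes separate for Ly6a to Kit, Slamf1 to Cd48, Cd34 to Flt3, Ly6a to Ly6e and Kit to Flt3, and overlap for Slamf1 to Flt3 and Procr to Cd48.

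Other genes used to divide the LSK and neighbouring gates were split in direction. Of 32 listed, 31 were tested, with 16 above 0 and 15 below, a median log2 change of 0.017 and 0 past limma. In the authors' deposited table, genes past an FDR of 0.05 included Cd9, Tek, Fcgr3 and Fcgr2b, which were higher, and Itga2b and Csf3r, which were lower. Of all genes there, 1.51% were higher and 1.64% lower past that FDR. Fcgr3, an Fc receptor used with CD34 to separate myeloid progenitors, was at 17.7 and 20.8 TPM in Setd2D/D and at 7.32 and 9.67 TPM in Setd2f/f (limma adjusted p = 0.320). Tek, the angiopoietin receptor described above among the endothelial markers, had a limma adjusted p of 0.255.

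Antigens of the lineage-negative side of the gate were low for T cells. Of 15 such genes 8 were tested, with 3 above 0, 5 below and 0 past limma, and Cd3e, Cd3d and Cd8a did not reach 1 TPM in any library. Cd4, a T cell antigen, was at 0 and 2.29 TPM in Setd2D/D and at 14.6 and 4.15 TPM in Setd2f/f. It was lower past an FDR of 0.05 in the authors' deposited table. Markers of other cell types differed between the genotypes beside the gate genes. The summed level of 17 erythroid markers was 1169 and 1060 TPM in Setd2D/D and 600 and 461 TPM in Setd2f/f, and that of 11 B lineage markers was 229 and 325 TPM in Setd2D/D and 689 and 369 TPM in Setd2f/f. Erythroid sums were thus higher and B lineage sums lower in both Setd2D/D libraries, and the B lineage sums differed widely within Setd2f/f. Of 15 erythroid markers tested, 15 were higher in both Setd2D/D libraries, beside 16.8% of all genes tested. Car2 was the largest part of that sum, at 503 and 439 TPM in Setd2D/D and at 401 and 228 TPM in Setd2f/f. Of 11 B lineage markers tested, 7 were lower in both, beside 27.6% of all genes tested. Pax5, Ms4a1, Igll1 and Rag1 overlapped. The 17 granulocyte and monocyte markers summed to 3554 and 5338 TPM in Setd2D/D and to 3017 and 3614 TPM in Setd2f/f, which overlap. Of these markers, 6 were higher and 4 lower in both Setd2D/D libraries, beside 16.8% and 27.6% of all genes tested. Mpo and Elane were among the higher and Csf3r and Ltf among the lower, so this sum does not stand for its list. The 13 stem cell and quiescence genes summed to 574 and 561 TPM in Setd2D/D and to 622 and 553 TPM in Setd2f/f, which also overlap. The 10 mast cell and basophil markers summed to 140 and 193 TPM in Setd2D/D and to 125 and 121 TPM in Setd2f/f. Of 8 such markers tested, Cpa3, Gzmb, Fcer1a and Cma1 were higher in both Setd2D/D libraries, beside 16.8% of all genes tested. Ms4a2, Mcpt8, Prss34 and Hdc overlapped. The 12 macrophage and dendritic markers summed to 481 and 475 TPM in Setd2D/D and to 285 and 249 TPM in Setd2f/f. In the macrophage and dendritic list 5 members were higher in both Setd2D/D libraries, beside 16.8% of all genes tested. Among them were Cd74, H2-Aa, H2-Ab1 and Cd68, which make up most of the sum. C1qa and C1qb were lower in both, beside 27.6% of all genes tested, and the others overlapped. The 11 T and NK cell markers summed to 117 and 149 TPM in Setd2D/D and to 187 and 185 TPM in Setd2f/f. Of 4 T and NK markers tested, Lck and Cd4 were lower in both Setd2D/D libraries, beside 27.6% of all genes tested. Nkg7, the largest part of the sum, overlapped, as did Klrb1c. The 11 megakaryocyte markers summed to 147 and 153 TPM in Setd2D/D and to 183 and 156 TPM in Setd2f/f. Of 9 megakaryocyte markers tested, 4 were higher and 2 lower in both Setd2D/D libraries, beside 16.8% and 27.6% of all genes tested. The megakaryocyte sum thus does not stand for the list. Mcpt4 of the mast cell list and Gp6 of the megakaryocyte list were at 0 in every library, and Ncr1 of the T and NK list stayed under 1 TPM. The part of cell mixture in the values of the 8 genes was not tested.

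Genes with the most similar profile over the 4 libraries were found by the root mean square distance between centred log2(TPM + 1) values. With 4 libraries such likeness is a description only. The closest were Zfp787 and Mterf2 for Ly6a (0.049 and 0.062), Lnp and Wbp11 for Ly6e (0.015 and 0.027), Atf6b and N4bp2l2 for Kit (0.015 and 0.017) and Wdr24 and Cobll1 for Cd34 (0.012 and 0.013). For Flt3 they were Zfp467 and Rbak (0.016 and 0.020), for Cd48 Mybl2 and Fancd2 (0.0066 and 0.014), for Slamf1 Slc2a9 and Cycs (0.068 and 0.072) and for Procr Fdxacb1 and Padi4 (0.032 and 0.033). The median distance of all such genes was between 0.25 for Flt3 and 0.57 for Ly6a.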

How the data were processed

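Per the labels' protocols, total RNA of LSK cells was purified on micro-scale columns and made into Illumina libraries. The authors deposited TPM values for 46517 genes in 4 libraries and a comparison for 23955 genes with a fold change as a ratio, log2 fold changes and log2 CPM, an F score, p-values and FDR. Per the submitters' processing notes, cutadapt, RSEM, edgeR and the build mm10 are named; the notes give no role or version. The direction of the deposited fold changes, Setd2D/D over Setd2f/f, was read from the TPM. Fields split by commas inside gene names were joined again in 5 TPM rows and 2 comparison rows.

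From the TPM, log2(TPM + 1) was tested with limma 3.58.1 in R 4.3.3 (1 genotype term, abundance trend, 2-sided), after testing the fit on simulated data. Without counts, no count test was made. The members and lists were chosen with earlier results of these data known. The rule for names took the 8 genes, Ly6 and SLAM genes with a mean TPM of at least 1, up to 4 genes per other list with the smallest limma p (mean TPM 1 or more), and for each member the 2 named genes with a mean TPM of at least 5 nearest in profile. Other genes were chosen after their values were seen. A few genes picked by this rule are not reported here. Locations come from GENCODE release M21 (GRCm38, the build mm10), which matched 46005 IDs.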

Additional observations from a re-analysis of the deposited data

How the results depend on the processing

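Over all genes, 10 passed an adjusted p of 0.05 by limma (1647 at an unadjusted p under 0.05), against 3 with a pseudocount of 0.1, 19 with no trend, and 0 with no filter (2035 unadjusted), with the replicate block (1508 unadjusted) or when any library was left out (a range of 0 to 0, with 554 to 2928 unadjusted; the lone library is then assumed to vary like the other genotype). Of the 8 gate genes, 0 passed under any setting run. Slamf1 did not pass the filter at TPM 5 and was not tested there. Of 111 single-gene alternatives, 106 kept direction and side of the threshold and 5 reversed, all in Slamf1 or Procr. Slamf1 was at -0.055 without Setd2D/D replicate 2 and -0.037 without Setd2f/f replicate 1, with a leave-one-out range of -0.055 to 0.60. Procr was at 0.0005 with quantile normalisation, 0.28 without Setd2D/D replicate 2 and 0.22 without Setd2f/f replicate 1, with a range of -0.40 to 0.28. The cause was not tested. The median change of all genes was -0.063, and between -0.0081 and -0.0035 under 3 other scalings. The replicate numbers share no stated origin, and the replicate 1 minus replicate 2 differences of the genotypes correlated at 0.041 over genes; the replicate block changed no call of the 8 genes. The depth is known only relative to the deepest library.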

Other observations

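The model within intron 1 of Cd48 was 1 of 333 tested gene models of the annotation class TEC, which are mostly unspliced models awaiting experimental support. In this class 92 models were higher in both Setd2D/D libraries and 33 lower, with 210 of 333 above 0 and a median log2 change of 0.12. Among 12077 protein-coding genes, 1931 were higher in both Setd2D/D libraries and 3581 lower, with a median log2 change of -0.073. None of the 333 models passed limma over all genes (adjusted p of 0.05), the class was chosen after the values of Gm37010 were seen, and no test of the difference between classes was made.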
